A study of Rattus norvegicus with 2 samples.

Results

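The ventral and lateral lobes of the prostate were compared in male TRAP rats that had received OBP-801. The comparison used 2 of the 4 RNAs of the series, the OBP-801 RNA of the ventral lobe and the OBP-801 RNA of the lateral lobe, and the 2 saline RNAs of the same lobes served for comparison without the drug. Both OBP-801 RNAs carried Cy3 and both saline RNAs Cy5, with 1 array per lobe, so the dye was the same on both sides of each lobe comparison. TRAP rats carry SV40 T antigen driven by the probasin promoter, which is active in prostate epithelium, and both OBP-801 and saline rats carry this transgene. The tissue is labelled as prostate cancer tissue, and rats without the transgene were not analysed here. Rats aged 6 weeks received OBP-801, an inhibitor of histone deacetylases, at 1 mg/kg (per the treatment protocol) in 2 intravenous injections per week for 8 weeks, or saline on the same schedule. How many rats stood behind each RNA, and whether they were pooled, is not stated in the labels. Because each lobe has a single array, no difference carries a test across animals, and lobe and array cannot be told apart. In whole tissue, fewer cells of a type and less RNA per cell cannot be told apart either.

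The rat prostate consists of paired lobes that develop from different buds of the urogenital sinus and secrete different proteins into the seminal fluid. The ventral lobe is known for very abundant androgen-dependent secretory proteins, and the lateral lobe for other secretory proteins and for its high zinc content. Histone deacetylases take acetyl groups off histones and many further proteins, and their inhibitors alter the transcription of many genes in both directions. Each of the 20174 gene probes carried an Ensembl rat gene ID, and 0 of these IDs could be matched to a gene symbol in the tables used here. Genes are therefore described by ID, by signal and by behaviour, without a function, and neither the markers of either lobe nor those of other cell types could be looked up to check the labelled tissue. No probe or gene sequence is shown for the same reason.

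Signals are given in intensity units as net signals, the median brightness of a spot less the mean of 5808 blank spots on the same array. A probe was called detected when its net signal reached 2 blank SDs (4.78 units in ventral and 5.70 units in lateral OBP-801 RNA) and clear when it reached 10 blank SDs (23.9 and 28.5 units). In OBP-801 RNA 11980 probes were clear in the ventral lobe (59.4%) and 10995 in the lateral lobe (54.5%). The comparison covered the 12099 probes that were clear in at least 1 lobe, of which 10876 were clear in both. Net signals were set on a common scale by quantile normalization, which gives both arrays the same distribution of signals.

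Under OBP-801 the lobes were alike for most genes. Of the 12099 probes, 82.6% lay within 1.5-fold of each other, and the middle 95% of the log2 differences (ventral minus lateral) ran from -1.09 to 1.37. The probes at least 2-fold apart numbered 585 with the higher signal in the ventral lobe (4.84%) and 354 with the higher signal in the lateral lobe (2.93%), together 7.76%. The limit of 2-fold fell inside a continuous distribution, since 89 ventral and 55 lateral probes lay within 0.1 log2 units inside it and 97 and 68 lay within 0.1 outside it. The only measured error was technical. Over 24 spots of each of 2 positive controls in OBP-801 RNA, the spread of the log2 signal within an array was 0.09 and 0.15 (SD) in the ventral lobe, and 0.15 and 0.17 in the lateral lobe. After normalization the mean log2 difference between the arrays was -0.55 for one control and 0.44 for the other, so the arrays differed by nearly 1.5-fold in these controls, whose make-up is not stated in the files. Lobe differences below that size were not distinguishable from the differences of the controls. These controls were bright, with mean net signals of 14326.5 to 28817.5 units in OBP-801 RNA. The error of dim probes was therefore not measured by them and may be larger.

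**Figure D1:**
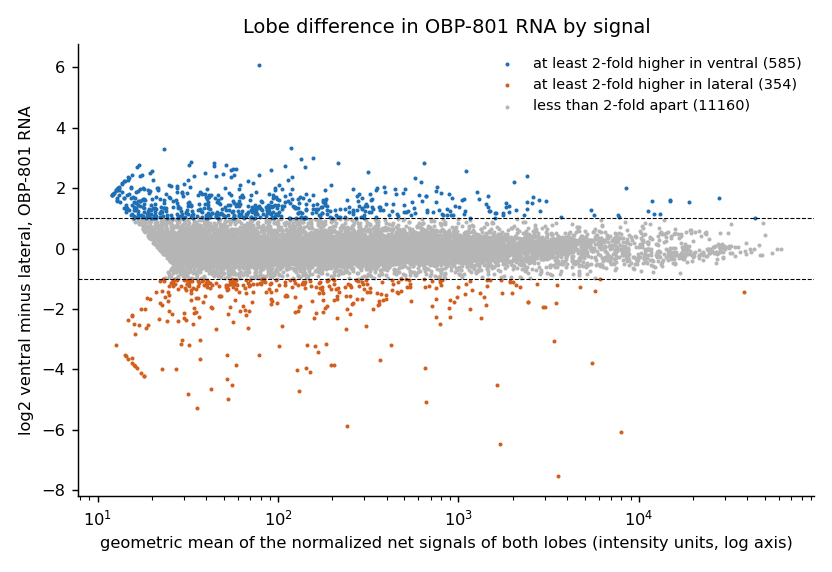
Each point is 1 of 12099 gene probes, with the geometric mean of its normalized net signals in both lobes on the x axis (intensity units, log axis) and the log2 difference of ventral minus lateral OBP-801 RNA on the y axis; dashed lines mark 2-fold. The 585 ventral probes crowd at low signal and stay at or below 3.32 with 1 exception, while the 354 lateral probes reach down to -7.51.

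The 2 directions differed in shape. Small differences were more often ventral, and large ones more often lateral. At least 3-fold apart were 206 ventral and 150 lateral probes, at least 4-fold apart 71 ventral and 96 lateral probes, and at least 8-fold apart 4 ventral and 50 lateral probes. At 16-fold and more there were 1 ventral and 18 lateral probes. In saline RNA the counts at 8-fold were 2 ventral and 46 lateral probes, so this lean of the largest differences towards the lateral lobe was present without the drug as well. Of the 50 lateral probes at 8-fold with OBP-801, the ventral signal was detected for 39 and clear for 23. Undetected OBP-801 signals were set to 4.18 units in ventral and 6.48 units in lateral RNA after normalization, which allows larger folds towards the lateral lobe. The 1 ventral probe at 16-fold is a single spot described further below.

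The ventral majority at 2-fold was concentrated in dim probes. When the compared probes were ordered by mean signal and split into 6 equal groups, 237 of the 2017 dimmest probes were higher in the ventral lobe and 110 in the lateral lobe. In the brightest group, whose mean signals ran from 1210 to 61346 units, the numbers were 42 ventral and 32 lateral probes of 2017, or 3.67% together. The 10-SD limit was lower on the ventral array, which let more dim ventral signals into the comparison. With the higher limit applied to both lobes after normalization, 491 ventral and 354 lateral probes were 2-fold apart, and with both lobes clear the counts were 326 and 261. Counting every probe detected in at least 1 lobe gave 745 ventral and 759 lateral probes, so the share of ventral calls was 49.5% there against 62.3% in the main comparison. In that count, a signal below the detection limit was set to 4.18 units in ventral and 6.48 units in lateral OBP-801 RNA after normalization. These unequal floors move dim probes towards the lateral lobe by construction. Without normalization the ventral share was 78.6% on a scale whose median lay at 0.20. Without background subtraction it was 53.8%.

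**Figure D2:**
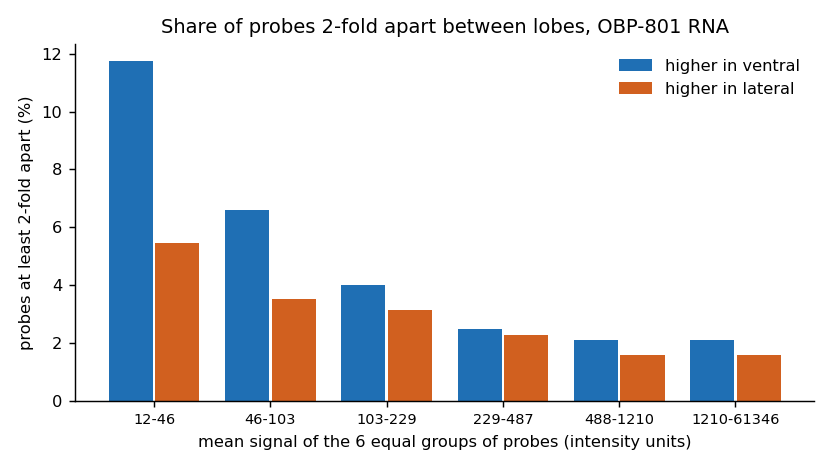
Bars give the percentage of probes at least 2-fold apart between the lobes in OBP-801 RNA, higher in ventral (blue) or higher in lateral (orange), in 6 equal groups of the 12099 probes ordered by mean normalized signal in intensity units. The ventral share falls from 11.8% in the dimmest group to 2.08% in the brightest, and the lateral share from 5.45% to 1.59%.

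The brightest probes were largely common to both lobes under the drug, where brightness is not a transcript level that can be set against that of another probe. Of the 20 brightest probes in ventral and the 20 brightest in lateral OBP-801 RNA, 16 were the same. Among the 24 probes in either set, 2 passed 2-fold towards the ventral lobe, 3 passed it towards the lateral lobe and 17 lay within 1.5-fold. Over the 119 probes that were among the 100 brightest of either lobe, 101 lay within 1.5-fold, with 7 ventral and 4 lateral probes past 2-fold. The log2 differences in this set ran from -7.51 to 1.68. The detector ceiling of 65535 units was reached by 1 probe of the ventral and 2 probes of the lateral OBP-801 RNA, and for these the level is only a lower bound.

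Among probes clear in both lobes and below the ceiling, ENSRNOG00000013776 had the largest lateral excess under OBP-801. Its net signal was 280.04 units in ventral and 49586 units in lateral OBP-801 RNA, a log2 difference of -7.51, or 182-fold. In saline RNA the same probe had 0.868 units in the ventral lobe, which is below the detection limit of 1.63 units there, and 7780 units in the lateral lobe. The lateral excess was thus present with and without the drug, and a ventral signal was measured only in OBP-801 RNA.

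ENSRNOG00000039786 was the second of this kind. It had 195 units in ventral and 16383 units in lateral OBP-801 RNA, which is a log2 difference of -6.45 or 87.6-fold. In saline RNA it had 0.165 units in the ventral lobe, again below the limit, and 3242 units in the lateral lobe. In the lateral lobe its OBP-801 over saline ratio, centred on the median of the array, was 1.33 on the log2 scale, and that of ENSRNOG00000013776 was 1.67. These ratios set Cy3 against Cy5, so for a single probe the dye and the drug cannot be told apart in them. The 10 probes with the largest lateral excess by this rule were 15.5-fold to 182-fold higher in the lateral lobe, and their lateral net signals ran from 487 to 49586 units. All 10 were at least 2-fold higher in the lateral lobe in saline RNA too, and for 8 of them the log2 difference was larger there, with ventral saline signals below the limit set to it.

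In the ventral direction the largest excess by the same rule was smaller. ENSRNOG00000031974 had 397 units in ventral and 33.6 units in lateral OBP-801 RNA, a log2 difference of 3.32 or 9.99-fold. In saline RNA it had 159 units in the ventral and 40.9 units in the lateral lobe, a log2 difference of 1.82. ENSRNOG00000021357 had 471 units in ventral and 49.97 units in lateral OBP-801 RNA, a log2 difference of 3.01 or 8.07-fold. Its saline signals were 159 units in the ventral and 43.7 units in the lateral lobe, a log2 difference of 1.73. Both probes were ventral in both RNAs, with the wider gap under OBP-801. The 10 probes with the largest ventral excess were 5.80-fold to 9.99-fold higher in the ventral lobe, with ventral net signals of 239 to 2801 units. All 10 were at least 2-fold ventral in saline RNA as well, and for 0 of the 10 was the saline difference the larger one. The 10 probes in each direction were picked for their OBP-801 difference, which favours a smaller value in the other RNA, and on the lateral side 8 of 10 had the larger value in saline RNA.

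**Figure D3:**
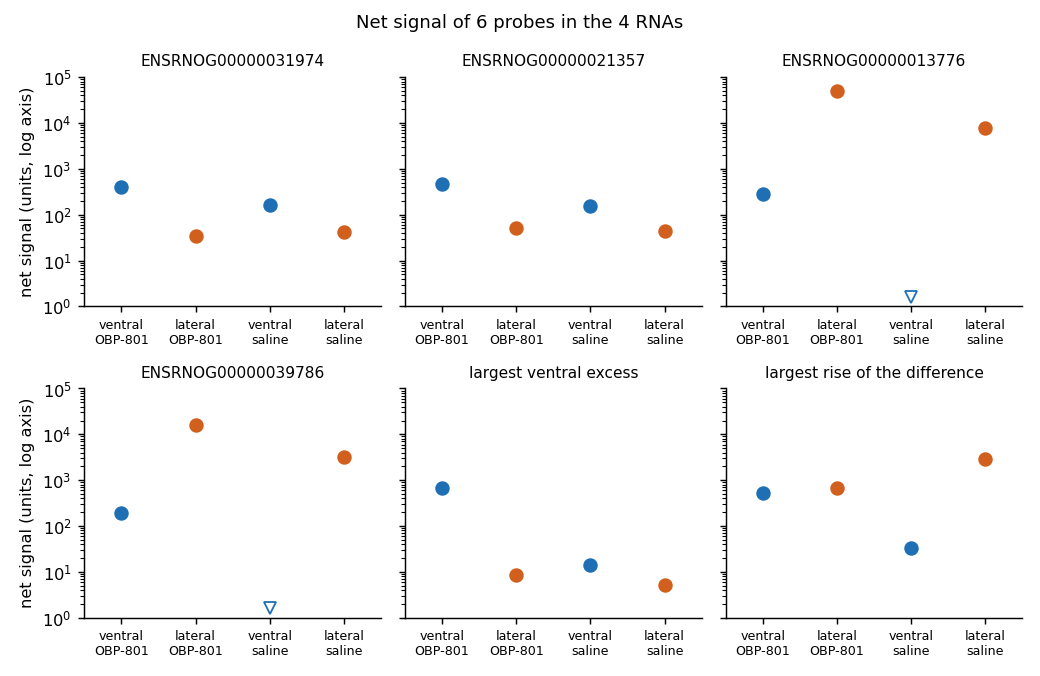
Net signal (intensity units, log axis) of 6 probes in ventral and lateral OBP-801 RNA and in ventral and lateral saline RNA, 1 array per lobe, ventral in blue and lateral in orange; an open triangle stands at the detection limit where the signal was below it, and the last 2 panels are the probes with the largest ventral excess and the largest change of the lobe difference. The 2 lateral probes named by ID have ventral signals of 280.04 and 195 units with OBP-801 and none above the limit with saline, and the last panel shows lateral 680 units with OBP-801 against 2931 units with saline.

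Among all compared probes, a single one stood outside the range of the other ventral differences. Its net signal was 681 units in ventral and 8.49 units in lateral OBP-801 RNA, a log2 difference of 6.09, and 14.3 units (ventral) and 5.23 units (lateral) in saline RNA, a log2 difference of 1.15. The next largest ventral difference was 3.32. The local background around this spot on the ventral array in Cy3 was 63.6 units. Of 506 other gene probes whose ventral spots were within 1.1-fold of it in brightness, 0 had a local background that low, and their median was 414 units. The part of the spot itself in this result was not tested, and there is no second spot for this gene.

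A small group of genes gave no detected signal in one of the lobes. Of the compared probes, 23 were below the detection limit in the lateral lobe and 11 were below it in the ventral lobe under OBP-801. For these only a lower bound of the fold can be given, computed against the lowest normalized signal of a detected probe on that array. By that bound all 23 passed 2-fold towards the ventral and all 11 towards the lateral lobe, which the clear limit in the brighter lobe fixes in advance. The detection limit is a weak one, since 27.9% (ventral) and 29.4% (lateral) of 809 spots without a probe exceeded it in OBP-801 RNA. At the clear limit the numbers of such spots were 0 and 1.

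The lobe differences seen under the drug were then set beside those in saline RNA, processed in the same way. In saline RNA the 2-fold limit was passed by 436 of 12802 probes (3.41%) towards the ventral and by 285 (2.23%) towards the lateral lobe, together 5.63%. Over the 11934 probes compared in both RNAs, the log2 lobe difference had an SD of 0.59 with OBP-801 and 0.54 with saline. The lobes were thus somewhat further apart in the OBP-801 channel, by an amount that cannot be separated from the use of another dye. Across these probes, which share their arrays and positions, the Pearson correlation of the 2 lobe differences was 0.862 and the Spearman correlation 0.816.

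Of 563 ventral probes past 2-fold under OBP-801 that could be compared in saline, 292 (51.9%) also passed 2-fold in saline RNA and 197 more lay between 1.5-fold and 2-fold in the same direction. The remaining 74 lay under 1.5-fold in that direction in saline RNA, 9 of them with the sign turned. Of 315 lateral probes, 208 (66.0%) passed 2-fold in saline RNA as well, 74 lay between 1.5-fold and 2-fold and 33 lay under 1.5-fold, with 0 of the opposite sign. In the other direction, 80.4% of 363 ventral and 79.1% of 263 lateral probes past 2-fold in saline RNA also passed under OBP-801. Not counted there were 73 ventral and 22 lateral probes past 2-fold in saline RNA that were clear in neither lobe under OBP-801. A further 22 ventral and 39 lateral probes past 2-fold under OBP-801 were clear in neither lobe in saline RNA and could not be compared. Most of the OBP-801 differences that could be compared lay at 1.5-fold or more in the same direction in saline RNA, and the 74 ventral and 33 lateral probes did not. Whether they differ between the treatments was not tested, since each RNA was measured once.

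**Figure D4:**
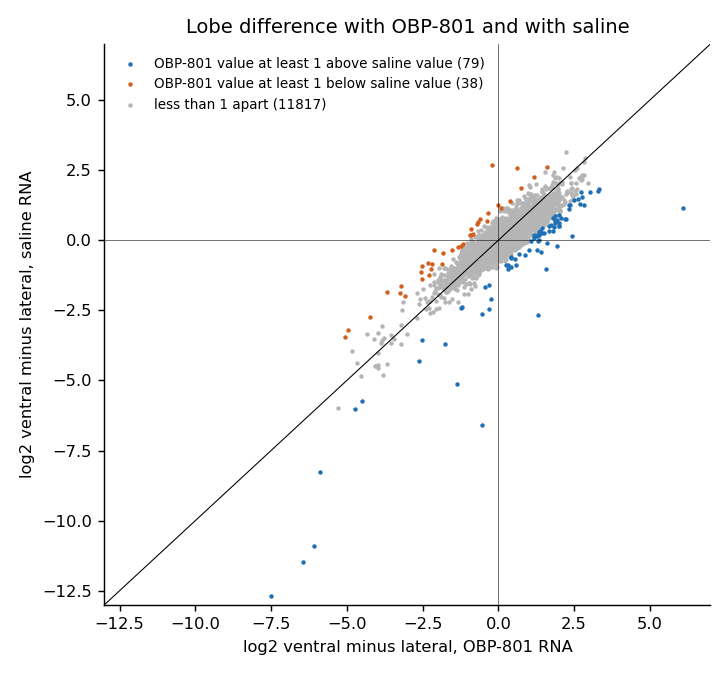
Each point is 1 of 11934 probes compared in both RNAs, with the log2 lobe difference (ventral minus lateral) in OBP-801 RNA on the x axis and in saline RNA on the y axis; the diagonal marks equal differences. The 79 blue points have an OBP-801 value at least 1 above the saline value and the 38 orange points one at least 1 below it; points far below -5 on the y axis include probes whose ventral saline signal was at or near the detection limit.

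The change of the lobe difference itself depended on how the background was treated. The log2 lobe difference was at least 1 higher with OBP-801 than with saline for 79 probes (0.662%) and at least 1 lower for 38 probes (0.318%), and 95.6% of the 11934 probes stayed within 1.5-fold. With the local background subtracted the counts were 1146 and 701, and without background subtraction they were 22 and 11. The 79 were not all ventral probes, since with OBP-801 51 were past 2-fold towards the ventral and 12 towards the lateral lobe, and with saline 13 and 21 were. The authors' deposited table, which lists log2 ratios of OBP-801 over saline for each lobe, gave 65 and 40 probes for the same difference over the 11887 of these probes that it lists for both lobes. Those ratios matched the ones recomputed here from the same signals, so these counts are not an independent check. All 4 signals were detected for 68 of the 79 probes. Within each lobe, the ratio of OBP-801 over saline for these 68 had a median log2 value of 0.48 in the ventral and -0.80 in the lateral lobe. In the ventral lobe 18 of them had a ratio of 2-fold or more, and in the lateral lobe 29 had a ratio of 2-fold or more below 1. For the 35 of 38 probes with all 4 signals detected, the medians were -0.33 in the ventral and 0.77 in the lateral lobe, and 14 had a lateral ratio at least 2-fold up. By these medians the larger part of the change lay on the lateral side in both sets. The ratios set Cy3 against Cy5, so dye and drug cannot be told apart in this split between the lobes. Many of these probes were dim, with a median lateral signal of 29.1 units under OBP-801 in the set of 79, and with both lobes clear in both RNAs the counts were 31 and 22.

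The largest change came from a probe that was strongly lateral in saline RNA and nearly equal between the lobes under OBP-801. Its net signal was 529 units in ventral and 680 units in lateral OBP-801 RNA, a log2 difference of -0.54. In saline RNA it had 32.8 units in the ventral and 2931 units in the lateral lobe, a log2 difference of -6.59.

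Genes that were strongly lateral without the drug were followed into OBP-801 RNA as a group. In saline RNA 22 probes were at least 16-fold higher in the lateral lobe. Under OBP-801, 16 of them were still at least 8-fold lateral, 2 were between 2-fold and 8-fold, 3 were less than 2-fold lateral and 1 was detected in neither lobe. The ventral signal was detected for 21 of the 22 in OBP-801 RNA and for 12 in saline RNA. The detection limit is a weak one, and the ventral OBP-801 signal was clear for 11 of the 22. OBP-801 RNA carried Cy3 and saline RNA Cy5, so dye and drug cannot be told apart in this contrast. All 4 signals were detected for 12 of the 22. As a percentage of the lateral signal of the same probe, the ventral signal of these 12 had a median of 7.07% with OBP-801, with a range of 1.58% to 77.8%, and a median of 3.98% with saline, with a range of 0.053% to 7.82%. The percentage was higher with OBP-801 for 10 of the 12. Because the probes were chosen for a large saline difference, a smaller difference in the other RNA is favoured by the choice. Chosen instead by OBP-801, 31 of the 50 probes at least 8-fold lateral had all 4 signals detected, and 12 of these had the higher percentage with OBP-801. The probe with 1.58% with OBP-801 and 0.053% with saline had its lateral OBP-801 signal at the detector ceiling, so the 1.58% is an upper bound. The 2 lateral probes named by ID are not among the 12, since their ventral saline signals were not detected; with OBP-801 their percentages were 0.565% and 1.19%. Another bright probe of the group, whose OBP-801 signals were 1539 units (ventral) and 21422 units (lateral), had 7.18% with OBP-801 and 3.58% with saline. Whether traces of lateral tissue were present in the ventral OBP-801 sample was not tested.

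**Figure D5:**
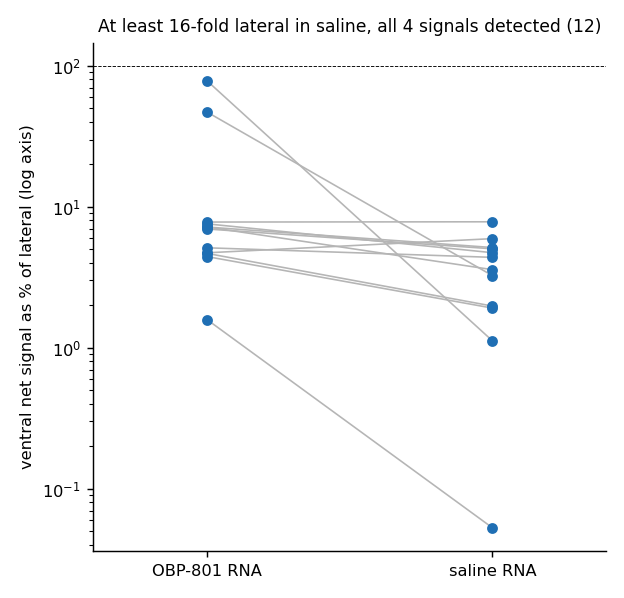
For the 12 probes that were at least 16-fold higher in the lateral lobe in saline RNA and had all 4 signals detected, the ventral net signal is plotted as a percentage of the lateral net signal (log axis) in OBP-801 RNA and in saline RNA, with a line joining the 2 values of a probe and a dashed line at equal signals. Medians are 7.07% with OBP-801 and 3.98% with saline, and the percentage is higher with OBP-801 for 10 of the 12.

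The differences were spread over the whole array, but their direction varied with position. Lateral probes past 2-fold outnumbered ventral ones in blocks 1, 2 and 3 (27 and 19 in block 1). Ventral ones were more numerous in every other block (39 ventral and 8 lateral in block 11). Across the 24 print blocks the median log2 lobe difference ran from -0.18 to 0.16 in OBP-801 RNA and from -0.23 to 0.16 in saline RNA. This shift with position was only partly shared by the 2 dyes. Block 1 had the lowest median in both. The highest was in block 11 with OBP-801 (0.16, saline 0.08) and in block 23 with saline (0.16, OBP-801 0.02). Centred per block, 569 ventral and 342 lateral probes were at least 2-fold apart under OBP-801, and 548 and 332 of them were among the 585 and 354 called without this step.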

How the data were processed

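Amino allyl aRNA was made from total RNA of each lobe and given its dye (Cy3 for OBP-801, Cy5 for saline) following Toray's procedure, per the labels' protocols. The deposited scanner files hold spot and local background intensity medians, not background-subtracted, from 3 gains joined by a least-squares fit, per the file headers. The image software is not stated in either. The authors' deposited table holds log2 values, which matched log2 of net Cy3 over net Cy5, centred on the median of each array.

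From these, the blank mean, trimmed by 5% at both ends, was subtracted, gene probes were quantile normalized between the arrays, signals were floored at the normalized value of the 2-SD limit and log2 differences taken. The filter was 10 blank SDs in at least 1 lobe. The calculation was tested on simulated data, with changes placed only in probes far above the blanks and without dye or position effects. Recovery of dim or 2-fold differences was not tested by it. No replicate exists, so no test was made; the number of arrays limits the precision.

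The comparison, gene lists and limits were chosen with earlier results of these data known. The named genes are the 2 probes per direction with the largest difference that were clear in both lobes and below the ceiling; others were chosen after their values were seen and have no ID here. The gene lists (23) were not evaluated, as 0 of 20174 IDs matched a symbol. Alternatives comprised other normalizations, backgrounds, filters and folds (limma 3.58.1 in R 4.3.3; Python 3.11.15, numpy 2.4.6, pandas 2.3.3, statsmodels 0.14.6).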

Additional observations from a re-analysis of the deposited data

Results flagged for a closer look

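Among probes compared in both RNAs, 2 were at least 2-fold apart between the lobes in opposite directions with OBP-801 and with saline. The first had a log2 difference (ventral minus lateral) of 1.58 in OBP-801 RNA and -1.02 in saline RNA, from net signals of 150 units in ventral and 41.7 units in lateral OBP-801 RNA, and 16.2 and 28.4 units in ventral and lateral saline RNA. The second had a log2 difference of 1.29 in OBP-801 RNA and -2.66 in saline RNA, from 72.2 units in ventral and 24.03 units in lateral OBP-801 RNA, and 16.5 and 92.7 units in ventral and lateral saline RNA. The lateral OBP-801 signal of the second probe was below the clear limit of 28.5 units. The differences of both probes were not tested, since each RNA was measured once.

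Spots outside the gene probes also gave signal in OBP-801 RNA. Of 809 spots without a probe, the blank mean was exceeded by 2 SD in 27.9% (ventral) and 29.4% (lateral), and of 521 quality control spots 73.9% and 67.2% did. Blank spots did so in 8.02% and 8.23% of cases.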

How the results depend on the processing

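No paired analysis was possible because there is only 1 array for a lobe. In the order ventral higher and lateral higher under OBP-801, then lobe difference larger and smaller with OBP-801 than with saline, the 2-fold counts of 585, 354, 79 and 38 became 182, 156, 22 and 11 without background subtraction, 187, 158, 19 and 18 with normexp and an offset of 50, and 1197, 1066, 1146 and 701 with the local background subtracted. They became 1228, 872, 336 and 191 at 1.5-fold and 206, 150, 19 and 8 at 3-fold. With 2 SD in at least 1 lobe, 759 were lateral, and 421 and 261 differed from saline. Undetected signals were set there to unequal floors, 4.18 (ventral) and 6.48 units (lateral) with OBP-801 and 1.16 and 2.89 units with saline. These floors by themselves shift the lobe differences of dim probes, by more in saline RNA. With 10 SD in both lobes, 326 were ventral, and 31 and 22 differed. Without normalization 235 were lateral. The causes were not tested, apart from the fold limits and filters, which change the counts by construction. All 182 and 187 ventral and all 156 and 158 lateral probes called without background subtraction or with normexp were among the 585 and 354; with the local background 386 and 238 were. Under median scaling, loess, centring per print block, one limit for both lobes and the authors' ratios, every count those alternatives gave was within 1.5 times of the first. The authors' ratios come from the same signals and are not an independent check. The saline channel is other RNA in another dye rather than another processing, and it gave 436 ventral and 285 lateral probes. Centring per block and the single limit were chosen after seeing the data. The log2 differences of the 4 named probes kept their signs under every normalization and background tried, from 2.14 to 3.56 for ENSRNOG00000031974, 2.12 to 4.16 for ENSRNOG00000021357, -7.76 to -7.21 for ENSRNOG00000013776 and -6.68 to -6.02 for ENSRNOG00000039786. A probe below the detection limit in a lobe has only a bound there.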
